A study of Homo sapiens with 11 samples.

Results

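The 48 genes described here encode DNA repair proteins and were chosen by name, as rows present in both deposited count tables, out of 26485 gene symbols. They were sorted by textbook role into 9 genes of homologous recombination, 5 of the Fanconi anaemia pathway, 5 of end joining, 8 of damage sensing and checkpoint signalling, 10 of base excision and single-strand break repair, 2 of mismatch repair and 9 of nucleotide excision repair. RNA was sequenced from 11 bulk samples of Caki-1-SR clone 1, a single clone of a subline of Caki-1, which is a human clear cell renal cell carcinoma line. The subline is resistant to sunitinib, a receptor tyrosine kinase inhibitor, and all groups were cultured with 1 µM of it. Treated cells received the optimized drug combination (ODC), made of erlotinib at 1 µM (an EGFR inhibitor), parthenolide at 5 µM (a plant-derived anti-inflammatory compound), metformin at 1 µM (an anti-diabetic drug) and Rapta-C at 2 µM (a ruthenium compound). Control cells (CTRL) received no ODC and are described in the study both as untreated and as sham-treated. There were 3 CTRL and 3 ODC samples at 24 h, and 2 CTRL and 3 ODC samples at 2 h.

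DNA double-strand breaks are repaired either by homologous recombination, which copies an intact sister chromatid and works mainly in S and G2 phase, or by end joining, which ligates broken ends in any phase of the cell cycle. The Fanconi anaemia proteins unhook crosslinks between DNA strands and hand the resulting breaks to homologous recombination. Base excision repair removes small damaged bases, nucleotide excision repair removes bulky lesions and mismatch repair corrects replication errors. Many homologous recombination and Fanconi anaemia genes are transcribed most strongly in proliferating cells, together with the DNA replication genes, whereas several end joining and excision repair genes are transcribed throughout the cycle.

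The 24 h libraries held 17785229 to 20882856 counts and the 2 h libraries 25782895 to 31118349. Levels are given as CPM, the counts relative to the library total after TMM scaling. The floor of 3 counts corresponded to 0.144 to 0.169 CPM in the 24 h libraries and to 0.0964 to 0.116 CPM in the 2 h libraries. The kidney epithelial markers PAX8, KRT8, KRT18 and VIM were each at 307.7 CPM or more in every library, whereas PAX2 reached at most 0.155 CPM. LHX1 and CDH16 were present at up to 51.8 and 13.4 CPM. The 4 endothelial markers PECAM1, CDH5, VWF and KDR reached at most 0.503 CPM, and of 4 immune markers CD68 reached 15.1 CPM and PTPRC, CD3E and CD14 at most 2.49 CPM. One 2 h control library, CTRL replicate 1, stood apart with 41.8 CPM of COL3A1. This fibroblast collagen reached at most 0.194 CPM in the other 10 libraries. The highest levels of the fibroblast markers COL1A1, DCN and PDGFRA, at 237.6, 2.825 and 0.774 CPM, were in the same library. Those of the 4 endothelial markers were in it too, at 13 counts or fewer. COL1A1 was at 60.0 CPM or more in all 11. Only some of the 2 h results, such as the homologous recombination median, are also given without this library. The part of this difference in the 2 h results was not tested. The names of the 2 h and 24 h libraries carry different months, and the labels do not say which step these date. Level differences between the times therefore cannot be told apart from differences between the months. The labels do not say that samples of a group were separate cultures, and the p-values measure only the spread between these samples.

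Of the 48 genes, 43 had a promoter entry in the RefSeq promoter table for GRCh38.p14, and the 250 bases before each start site were searched on both strands for motifs of cell cycle regulated promoters. The E2F core, spelled TTTCCCGC, TTTCGCGC, TTTGCCGC or TTTGGCGC, was present in the promoters of FANCA, FANCC, LIG1 and PMS2, beside 2.79% of 27305 promoters. The CHR element, TTTGAA, was present in the promoters of ATM, FANCC, MDC1 and XRCC1, beside 13.6% of all promoters. CCAAT was present in 17 of the 43, beside 33% of all promoters. Promoters were considered for the 4 genes with an unadjusted p under 0.05 at 24 h, and those of CHEK1 and FANCG are shown because their windows hold over 100 bases outside annotated exons. Capitals mark the only match among the motifs searched, CCAAT read on the reverse strand. Shown 5′ to 3′ in the direction of transcription are CHEK1 at chr11:125626035-125626228 on the plus strand and FANCG at chr9:35080005-35080192 on the minus strand.
CHEK1: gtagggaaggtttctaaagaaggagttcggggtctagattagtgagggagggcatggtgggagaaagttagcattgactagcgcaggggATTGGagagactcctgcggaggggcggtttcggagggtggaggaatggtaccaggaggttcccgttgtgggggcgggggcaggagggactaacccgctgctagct
FANCG: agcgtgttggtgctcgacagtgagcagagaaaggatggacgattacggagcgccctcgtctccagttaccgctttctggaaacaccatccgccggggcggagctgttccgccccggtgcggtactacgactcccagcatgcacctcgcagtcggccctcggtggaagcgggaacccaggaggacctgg
No match to the 3 motifs was found in the 250-base windows of FANCG, FANCD2 and XRCC4. This says only that these letters are not in these windows.

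Every one of the 48 genes passed the filter on low counts at both times. Levels per exon length, as CPM per kilobase of exon (RPKM) in the CTRL libraries at 24 h, spanned from 0.195 ± 0.0845 for ERCC5 to 191.5 ± 10.4 for XRCC6 (mean ± SD, n = 3). The highest levels belonged to the Ku heterodimer, which binds free DNA ends: XRCC6 (Ku70) was followed by XRCC5 (Ku80) at 98.2 ± 7.17 RPKM. APEX1, the main abasic site nuclease, stood at 88.2 ± 8.99 RPKM, within the spread of XRCC5. DDB1, a damage-binding ubiquitin ligase subunit, followed at 33.8 ± 1.07 RPKM. PRKDC, the kinase that Ku recruits, at 27.4 ± 3.37 RPKM and UNG, which removes uracil, at 27.4 ± 2.56 RPKM did not differ beyond their spread.

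Within homologous recombination the levels ran from 0.828 ± 0.0441 RPKM for RAD51B to 18.95 ± 1.04 RPKM for RAD54L, a motor protein of strand exchange. BRCA2, which loads the recombinase, stood at 2.46 ± 0.510 RPKM and BRCA1, which promotes end resection, at 4.31 ± 0.534 RPKM. In the Fanconi anaemia pathway FANCC was lowest at 0.913 ± 0.0896 RPKM and FANCD2 highest at 16.0 ± 1.06 RPKM. The lowest of all were 4 nucleotide excision repair genes: ERCC5, ERCC6, ERCC8 and ERCC4, at 0.762 RPKM or less. The exons of ERCC5 overlap the readthrough gene BIVM-ERCC5, and how reads were divided between them is not stated, so that its low level, 1.6 to 3.24 CPM at 24 h, is uncertain.

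**Figure D1:**
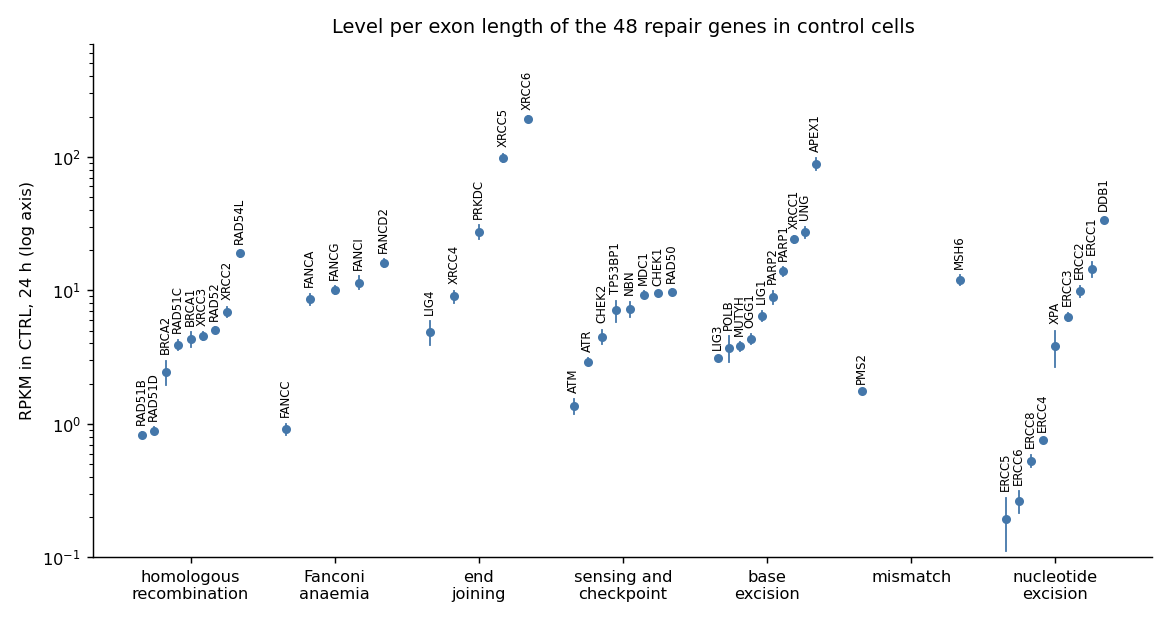
Level per exon length of the 48 repair genes in the 3 CTRL libraries at 24 h, in RPKM on a log axis and grouped by pathway (points are means, bars are 1 SD). XRCC6 is highest at 191.5 RPKM and ERCC5 lowest at 0.195 RPKM. Below 1 RPKM lie 7 genes, of nucleotide excision repair, homologous recombination and the Fanconi anaemia pathway. Exon length counts every annotated exon of a gene, so that the order also depends on the annotation.

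The comparison of ODC with CTRL at 24 h asked which repair pathways moved with treatment. Of the 48 genes, 37 were lower and 11 higher in ODC, with a median log2 fold change of -0.062, whereas the median of all 12689 genes tested was 0.00089 and 49.9% of them were lower. No gene of the 48 passed edgeR's quasi-likelihood test after Benjamini-Hochberg adjustment over all genes, which 0.189% of all genes did. An unadjusted p under 0.05 was reached by 4 genes, CHEK1, XRCC4, FANCG and FANCD2, all lower. Over all genes tested, 12.2% reached it in either direction and 5.04% reached it lower, so that 4 of 48 is close to the background and is not a result about the repair genes as a group. DESeq2 gave 3 such genes, beside 11.9% of all genes, and none after adjustment. Without ODC replicate 2 the count was 1, beside 10.1% of all genes. Without CTRL replicate 2 or without ODC replicate 3 it was 2, beside 12.9% and 15.6%. In hg38 with GENCODE release 44, CHEK1 lies at chr11:125625163-125676255 (plus strand), XRCC4 at chr5:83077498-83353787 (plus), FANCG at chr9:35073835-35080004 (minus) and FANCD2 at chr3:10026370-10101932 (plus), and counts cover the exons of each. When adjacent library numbers at 24 h were entered as a replicate block, 11 of the 48 genes had an unadjusted p under 0.05, all lower, beside 23.6% of all genes in either direction. These were the same 4 with BRCA1, BRCA2, XRCC2, FANCI, PARP1, PARP2 and MUTYH, and again none passed adjustment. All values are from bulk RNA, in which less RNA per cell and fewer cells in a given state cannot be told apart.

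The groups did not overlap at 24 h for 8 of the 48 genes. Every ODC library was below every CTRL library for RAD54L, XRCC2, FANCG, XRCC4, CHEK1, MUTYH and ERCC3, beside 8.51% of all genes tested. Every ODC library was above every CTRL library for LIG3, beside 9.42% of all genes. These 7 genes come from 6 of the 7 pathways.

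**Figure D2:**
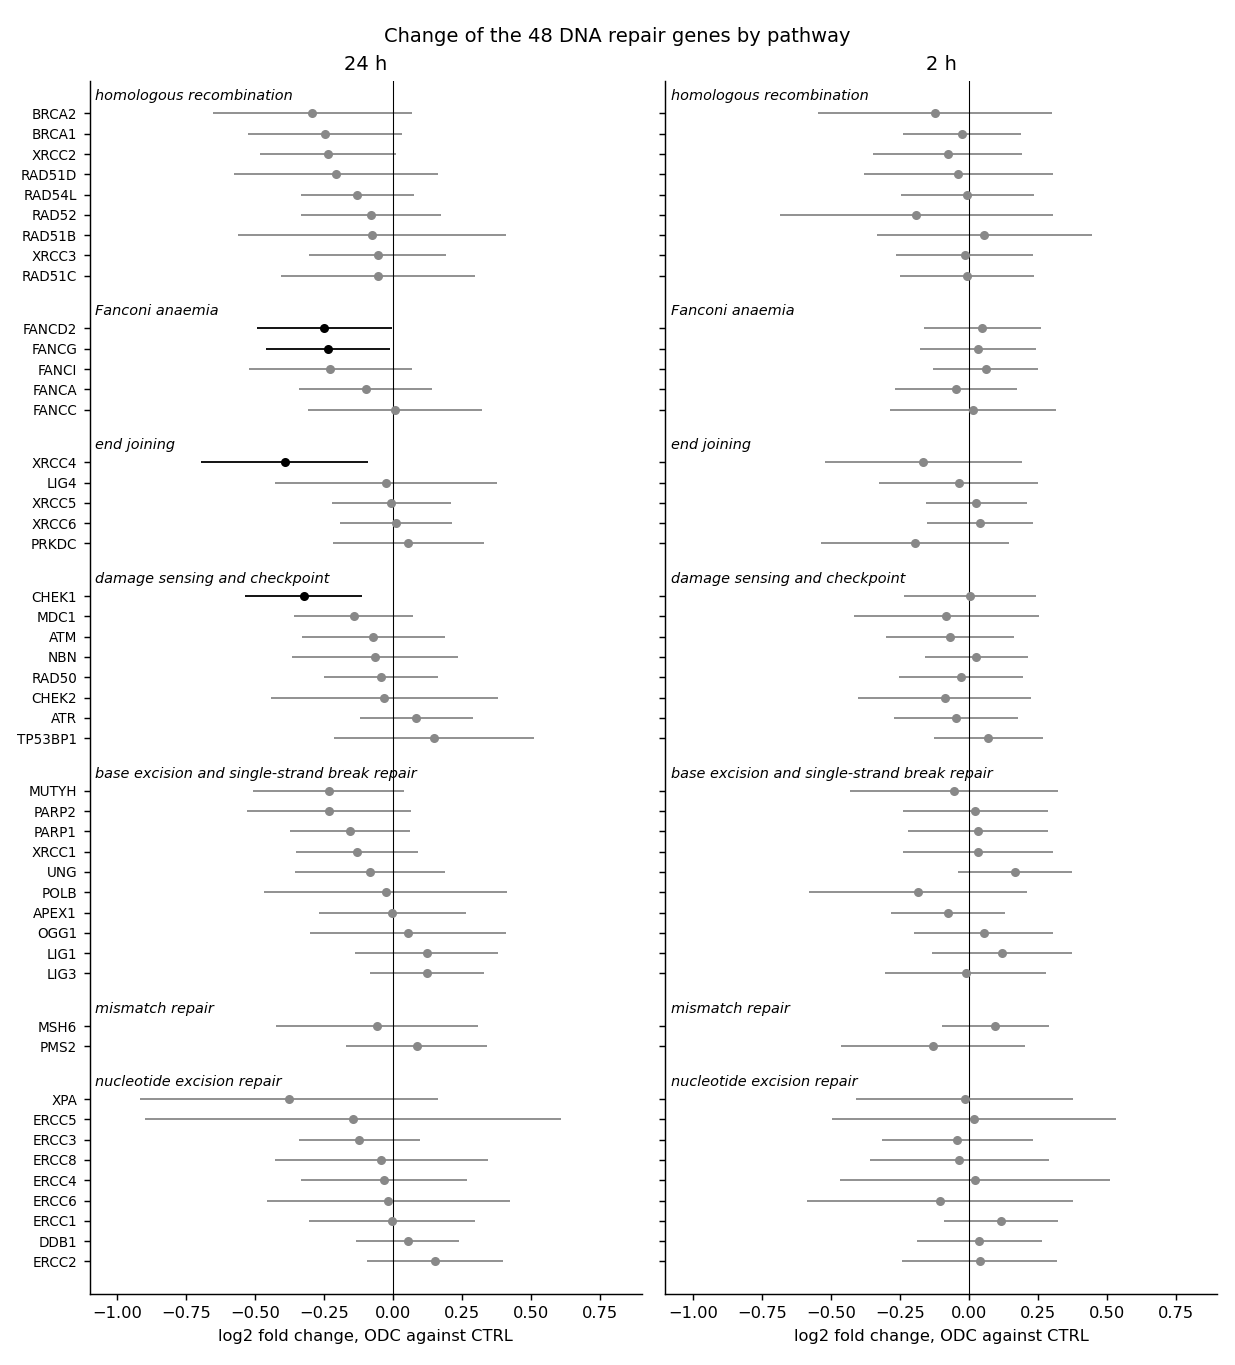
Log2 fold change of ODC against CTRL for the 48 repair genes at 24 h (left) and 2 h (right), by pathway, with 95% confidence intervals from edgeR, and an unadjusted p under 0.05 drawn in black. At 24 h all 9 homologous recombination genes lie below 0 and the 4 black points are FANCD2, FANCG, XRCC4 and CHEK1, whereas at 2 h every interval includes 0.

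Homologous recombination genes were lower in all 9 cases at 24 h, with a median log2 fold change of -0.13 and a range of -0.29 to -0.056, and none reached an unadjusted p under 0.05. With adjacent library numbers as a replicate block, BRCA1, BRCA2 and XRCC2 reached it. The largest difference was in BRCA2, at -0.29 ± 0.16 (log2 fold change ± SE, edgeR, adjusted p = 0.506). BRCA1 followed at -0.25 ± 0.12 (adjusted p = 0.465). XRCC2, a paralog of the recombinase, had the smallest p of the pathway. Its levels were 46.2, 40.0 and 47.4 CPM in the CTRL libraries and 38.8, 36.0 and 38.5 CPM in the ODC libraries. All 3 treated libraries of XRCC2 were thus below the lowest control, by a small margin. The log2 fold change was -0.24 ± 0.11 (95% CI -0.48 to 0.0091, edgeR adjusted p = 0.426). At the other end RAD51C and XRCC3, which process recombination intermediates, were at -0.056 and -0.057. The remaining 4 genes, RAD51D, RAD54L, RAD52 and RAD51B, lay between -0.21 and -0.078.

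Averaged over the 9 genes as log2 CPM relative to the control mean, the CTRL libraries at 24 h stood at -0.007, 0.048 and -0.040 and the ODC libraries at -0.084, -0.188 and -0.200. The treated libraries were all below the controls, and the gap between the nearest libraries of each group, -0.040 and -0.084, was small. Without ODC replicate 1 the median of the 9 genes was -0.21. The direction of this median was the same under every scaling tried.

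Of the 5 Fanconi anaemia genes 4 were lower, with a median of -0.23, and 2 of them, FANCD2 and FANCG, had an unadjusted p under 0.05. FANCD2 is the protein that the core complex ubiquitinates at stalled forks. It was measured at 196.6, 198.2 and 175.8 CPM in the CTRL libraries and at 178.6, 149.3 and 151.9 CPM in the ODC libraries. The groups overlapped, since ODC replicate 1 was above CTRL replicate 3. The log2 fold change of FANCD2 was -0.25 ± 0.11 (95% CI -0.49 to -0.0055, edgeR adjusted p = 0.398). FANCD2 shares exonic sequence with an opposite-strand gene, FANCD2OS, and has pseudogene copies, and the strand setting of the counting was not stated.

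FANCG, a subunit of the core complex, was measured at 59.7, 55.3 and 52.7 CPM in the CTRL libraries and at 50.0, 44.6 and 47.7 CPM in the ODC libraries. The highest treated library was below the lowest control. Its log2 fold change was -0.24 ± 0.097 (95% CI -0.46 to -0.012, edgeR adjusted p = 0.382). FANCI, the partner of FANCD2, had a similar value, -0.23 ± 0.13, with an adjusted p of 0.534 in edgeR's test, and reached an unadjusted p under 0.05 with the replicate block. FANCA and FANCC, further core complex subunits, were at -0.10 ± 0.10 and 0.0075 ± 0.14. The mean over the 5 genes was -0.253 to -0.082 in ODC libraries and -0.088 to 0.081 in CTRL libraries, so that the groups overlapped. Without ODC replicate 3 the median was -0.13, and without CTRL replicate 2 it was -0.15.

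**Figure D3:**
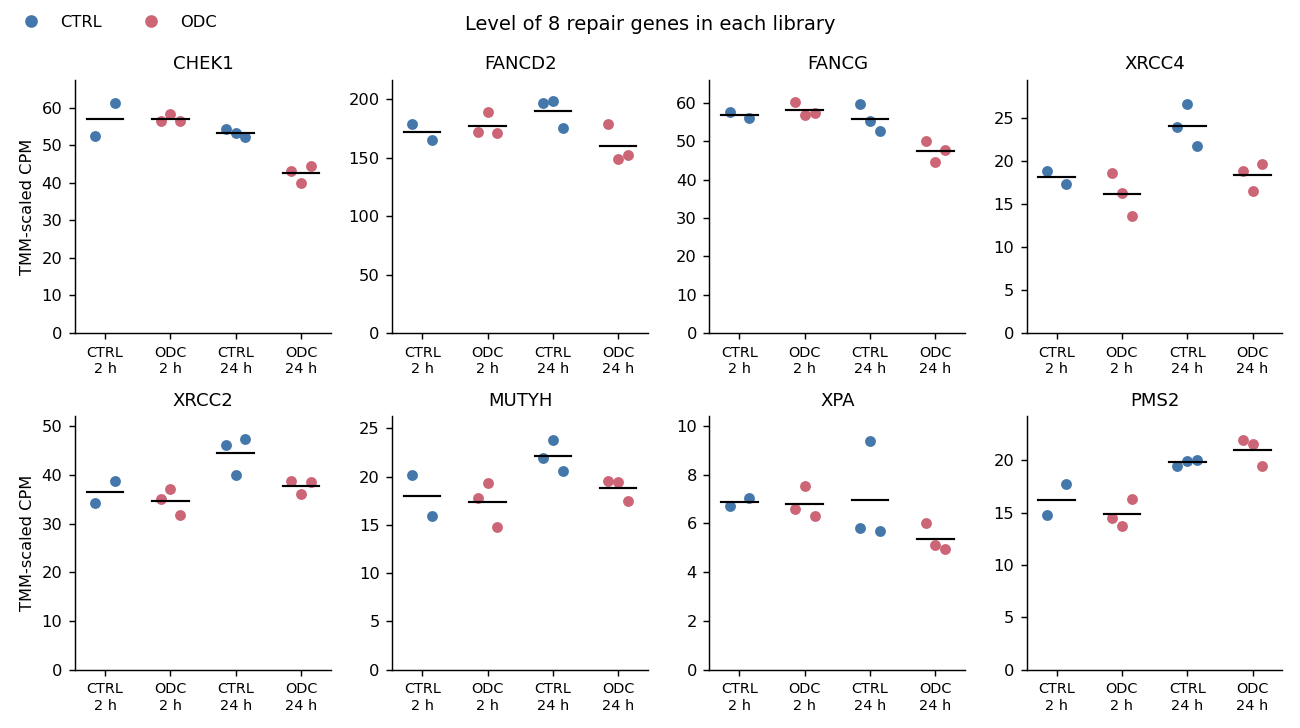
Level of 8 repair genes in each library, as TMM-scaled CPM from 0, for CTRL (blue) and ODC (red) at 2 h and 24 h (points are libraries, bars are means). The 3 ODC libraries at 24 h lie below all CTRL libraries of that time for CHEK1, FANCG, XRCC4, XRCC2 and MUTYH, and the groups overlap for FANCD2, XPA and PMS2.

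Of the 5 end joining genes 3 were lower. XRCC4, the scaffold of the ligation complex, had the largest difference of all 48 genes, and the other 4 members lay between -0.026 and 0.054. XRCC4 was measured at 23.9, 26.6 and 21.7 CPM in the CTRL libraries and at 18.9, 16.5 and 19.6 CPM in the ODC libraries. The treated libraries were all below the controls and the mean was 23.9% lower. The log2 fold change was -0.39 ± 0.13 (95% CI -0.70 to -0.092, edgeR adjusted p = 0.274). LIG4, the ligase that XRCC4 stabilises, was at -0.026 ± 0.17, with a 95% CI of -0.43 to 0.38. The Ku subunits XRCC5 and XRCC6 were at -0.0070 ± 0.093 and 0.0085 ± 0.088, with 95% CIs of -0.22 to 0.21 and -0.19 to 0.21. PRKDC was at 0.054 ± 0.12. The median of the 5 genes was -0.0070, and it was 0.026 without ODC replicate 3.

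Among the 8 damage sensing and checkpoint genes 6 were lower, with a median of -0.056. CHEK1, the kinase that holds the cell cycle when replication forks stall, had the smallest p of all 48 genes. It was measured at 54.2, 53.3 and 52.3 CPM in the CTRL libraries and at 43.2, 39.9 and 44.5 CPM in the ODC libraries. The control libraries lay close together and every treated library was well below them, with a mean 20.1% lower. The log2 fold change was -0.32 ± 0.092 (95% CI -0.54 to -0.11, edgeR adjusted p = 0.214). Over 18 other settings its unadjusted p stayed under 0.05 in 18, while its adjusted p ranged from 0.0573 to 0.655. Part of the exons of CHEK1 overlaps those of STT3A on the same strand, a gene also present in the tables.

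The other sensing and checkpoint genes lay nearer to 0 than CHEK1. ATR, which activates CHEK1, was at 0.084 ± 0.089 and ATM, which activates CHEK2, at -0.072 ± 0.11. CHEK2 was at -0.032 ± 0.18. The break sensors RAD50 and NBN were at -0.045 ± 0.089 and -0.066 ± 0.13. The chromatin adaptors at breaks, MDC1 and TP53BP1, were at -0.14 ± 0.094 and 0.15 ± 0.16. None of these 7 genes had an unadjusted p under 0.05. Without CTRL replicate 2 the median of the 8 genes was 0.0004, and without ODC replicate 2 it was -0.0043.

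In base excision and single-strand break repair 7 of 10 genes were lower, with a median of -0.056 and no unadjusted p under 0.05, whereas PARP1, PARP2 and MUTYH reached it with the replicate block. MUTYH, the glycosylase that removes adenine opposite oxidised guanine, had the smallest p. It was measured at 22.0, 23.9 and 20.6 CPM in the CTRL libraries and at 19.5, 19.5 and 17.5 CPM in the ODC libraries. The groups were separated by about 1 CPM. Its log2 fold change was -0.23 ± 0.12 (95% CI -0.51 to 0.039, edgeR adjusted p = 0.481), and its exons overlap those of the opposite-strand gene TOE1. The break-sensing polymerases PARP2 and PARP1 were at -0.23 ± 0.13 and -0.16 ± 0.094, and their scaffold XRCC1 at -0.13 ± 0.096. The ligases LIG3 and LIG1 went the other way, at 0.12 ± 0.090 and 0.12 ± 0.11. LIG3 was measured at 39.5 to 41.0 CPM in CTRL and at 43.4 to 43.97 CPM in ODC, which did not overlap (edgeR adjusted p = 0.642). The glycosylases OGG1 and UNG, the nuclease APEX1 and the polymerase POLB lay between -0.084 and 0.054. With a library left out the median of the 10 genes ran from -0.12 without ODC replicate 2 to 0.017 without CTRL replicate 1.

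The 2 mismatch repair genes measured here had opposite signs, both within their errors. MSH6, which recognises mismatches, was at -0.059 ± 0.16, and PMS2, which nicks the strand to be repaired, at 0.084 ± 0.11. PMS2 had 19.5, 19.9 and 20.0 CPM in the CTRL libraries and 22.0, 21.6 and 19.5 CPM in the ODC libraries. The treated libraries of PMS2 overlapped the controls (edgeR adjusted p = 0.827). PMS2 has pseudogene copies, and how reads that also match these were counted is not stated. The median of the pair was 0.013, which turned to -0.0012 with upper quartile scaling and to -0.023 with library size only. It was -0.083 without ODC replicate 2 and 0.11 without ODC replicate 3.

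In nucleotide excision repair 7 of 9 genes were lower, with a median of -0.032, which turned to 0.025 without CTRL replicate 2 and to 0.028 without ODC replicate 2 and was -0.084 without ODC replicate 1. XPA, which verifies the lesion, had the smallest p. It was measured at 5.82, 9.39 and 5.70 CPM in the CTRL libraries and at 6.00, 5.13 and 4.95 CPM in the ODC libraries. CTRL replicate 2 was far above the other libraries, and the groups overlapped. The log2 fold change of XPA was -0.38 ± 0.23 (95% CI -0.92 to 0.16, edgeR adjusted p = 0.575), and it was -0.10 without CTRL replicate 2. ERCC3 and ERCC2, the helicases that open DNA around the lesion, were at -0.12 ± 0.095 and 0.15 ± 0.11. DDB1 was at 0.052 ± 0.081, with an interval of -0.14 to 0.24. The nuclease subunits ERCC1 and ERCC4 were at -0.0041 ± 0.13 and -0.032 ± 0.13. ERCC6 and ERCC8, which act at stalled transcription, were at -0.018 ± 0.19 and -0.043 ± 0.17. ERCC5, a nuclease that cuts beside the lesion, was at -0.15 ± 0.33.

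Side by side, the 14 homologous recombination and Fanconi anaemia genes were lower in 13 cases with a median of -0.17, and the 34 genes of the other pathways were lower in 24 cases with a median of -0.032. The median of the 14 genes was -0.11 without ODC replicate 3 or without CTRL replicate 2. Among the 14 genes 2 had an unadjusted p under 0.05 and in the 34 others also 2, beside 12.2% of all genes tested. These counts became 6 and 5 with the replicate block, beside 23.6% of all genes. The difference between these medians was not tested, since genes of a pathway are not replicates. In the libraries, the mean over the 14 genes was -0.083, -0.174 and -0.219 in ODC and -0.002, 0.059 and -0.058 in CTRL. The mean over the 34 genes was -0.007, -0.047 and -0.104 in ODC and -0.005, 0.051 and -0.046 in CTRL. The former groups were separated by a gap smaller than the spread of either group, and the latter overlapped.

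**Figure D4:**
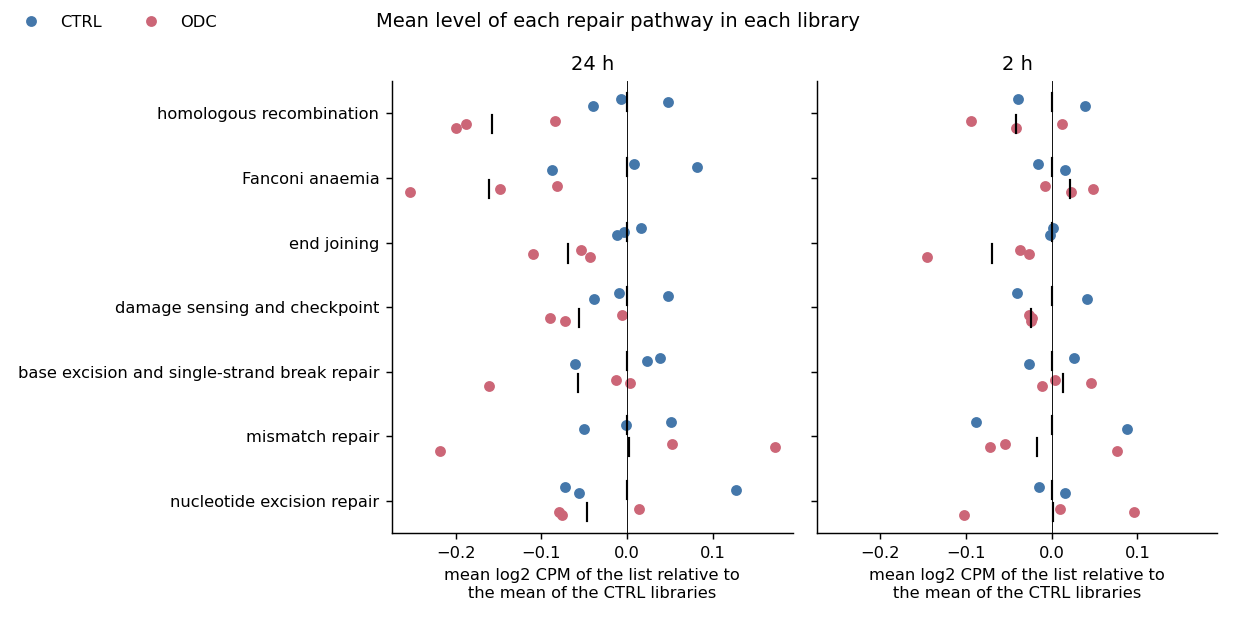
Mean log2 CPM of each repair pathway in each library, relative to the mean of the CTRL libraries of that time, at 24 h (left) and 2 h (right), with CTRL in blue, ODC in red and group means as bars. At 24 h the ODC libraries of homologous recombination lie at -0.084 to -0.200, below all CTRL libraries, and for end joining, where XRCC4 differs most, at -0.043 to -0.110, whereas the other 5 pathways overlap.

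The comparison at 2 h asked whether repair genes had moved early. Of the 48 genes 26 were lower and 22 higher, with a median of -0.0098, beside -0.0060 for all 13332 genes tested. No gene of the 48 reached an unadjusted p under 0.05 in edgeR's quasi-likelihood test, as 2.34% of all genes did and 0.87% did lower, and none did in DESeq2. After adjustment 0% of all genes passed, so that the count at 2 h carries no call for any gene. The medians were -0.025 for homologous recombination, 0.034 for Fanconi anaemia, -0.037 for end joining, -0.038 for sensing and checkpoint, 0.027 for base excision, -0.018 for mismatch repair and 0.017 for nucleotide excision repair. With only 2 controls these medians turned on single libraries: homologous recombination stood at -0.086 without CTRL replicate 1, the library with COL3A1, and at 0.059 without CTRL replicate 2. Each of these fits leaves 1 control, so that counts of genes under a p threshold are not given for them.

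Every ODC library was above every CTRL library at 2 h for UNG, MSH6 and ERCC1, beside 7.89% of all genes tested, and none of the 48 genes had every ODC library below the controls, as 7.42% of all genes did. UNG had the smallest p at 2 h. It was measured at 105.1 and 111.6 CPM in the CTRL libraries and at 115.1, 123.8 and 125.8 CPM in the ODC libraries. All treated libraries were higher, by 12.2% on average. The log2 fold change of UNG was 0.17 ± 0.089 (95% CI -0.040 to 0.37, edgeR adjusted p = 1), beside -0.084 ± 0.12 at 24 h.

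The genes with an unadjusted p under 0.05 at 24 h are given here at 2 h. CHEK1 was measured at 52.4 and 61.4 CPM in CTRL and at 56.5, 58.3 and 56.4 CPM in ODC at 2 h, a log2 fold change of 0.0041 ± 0.10. FANCG was at 57.6 and 56.0 CPM in CTRL and at 60.4, 56.7 and 57.3 CPM in ODC, a log2 fold change of 0.034 ± 0.091. FANCD2 was at 178.4 and 164.8 CPM in CTRL and at 171.9, 189.5 and 170.8 CPM in ODC, a log2 fold change of 0.048 ± 0.092. In all 3 genes the treated and control libraries overlapped. XRCC4, at 18.9 and 17.4 CPM in CTRL and 18.6, 16.2 and 13.6 CPM in ODC, had a log2 fold change of -0.17 ± 0.16.

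The effect at 24 h was then tested against the effect at 2 h in one fit of all 11 libraries. An unadjusted p under 0.05 was reached by CHEK1, FANCG and FANCD2, all with a lower effect at 24 h, where 5.93% of all 13333 genes reached it in either direction and 2.77% with a lower effect. CHEK1 differed by -0.34 ± 0.14 (edgeR adjusted p = 0.755). FANCG differed by -0.29 ± 0.13 (edgeR adjusted p = 0.827) and FANCD2 by -0.32 ± 0.14 (edgeR adjusted p = 0.842). None passed the adjustment, as 0.015% of all genes did. Without CTRL replicate 1 of 2 h, without ODC replicate 2 of 2 h or without CTRL replicate 1 of 24 h no gene of the 48 had an unadjusted p under 0.05. CHEK1 alone reached it without ODC replicate 1 or 3 of 2 h, without CTRL replicate 2 of 24 h, or without ODC replicate 3 of 24 h. Without ODC replicate 2 of 24 h UNG alone reached it, and none of CHEK1, FANCG and FANCD2 did. This fit uses the same libraries as the comparisons at each time and is not independent of them. XRCC4 differed by -0.24 ± 0.21 between the times (edgeR adjusted p = 0.995), so that its effect at 24 h was not told apart from that at 2 h.

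Other genes of the same pathways were taken from lists written by function, and 82 of them were tested at 24 h. Of these 65 were lower and 17 higher, with a median of -0.14, and 12 had an unadjusted p under 0.05, all lower, beside the 5.04% lower and 12.2% in either direction over all genes. The smallest p belonged to BLM, the helicase that dissolves recombination intermediates, with 47.2, 51.9 and 47.1 CPM in CTRL and 34.5, 37.1 and 37.6 CPM in ODC. The treated libraries of BLM were well below the controls, at a log2 fold change of -0.42 ± 0.098 (edgeR adjusted p = 0.148). The next were RAD54B, a recombination motor protein, at -0.40, USP1, which removes ubiquitin from FANCD2, at -0.34, FEN1, the flap nuclease of replication and base excision, at -0.31 and FANCL, the ubiquitin ligase of the Fanconi core complex, at -0.38. Their adjusted p-values from edgeR ran from 0.223 to 0.262. By pathway, the medians were -0.23 for 14 further homologous recombination genes, -0.27 for 13 Fanconi anaemia genes, -0.15 for 14 sensing genes, -0.11 for 14 base excision genes, -0.074 for 6 end joining genes, -0.14 for 4 mismatch repair genes, all of them lower, and -0.056 for 17 nucleotide excision genes. At 2 h 83 such genes had a median of -0.022. An unadjusted p under 0.05 was reached by 1 of them, beside 2.34% of all genes tested. This was H2AFX, the histone variant phosphorylated at breaks, at 0.34 ± 0.11 (edgeR adjusted p = 1).

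Genes of DNA replication and mitosis, which mark cycling cells, and targets of p53, which answer to DNA damage among other stresses, were set beside the repair genes at 24 h. Over all genes tested at 24 h, 49.9% were lower, and 5.04% were lower with an unadjusted p under 0.05 (12.2% in either direction). Of 30 replication genes 29 were lower with a median of -0.22, and 8 had an unadjusted p under 0.05, all lower. RFC4, a subunit of the clamp loader, was lowest among them at -0.56 ± 0.14 (adjusted p = 0.168). Their summed level was 4534 to 4985 CPM in the CTRL libraries and 3811 to 4438 CPM in the ODC libraries, and the mean log2 level in ODC was -0.139, -0.195 and -0.350. Of 18 mitosis genes 17 were lower with a median of -0.11, and 3 had an unadjusted p under 0.05, all lower, beside 5.04% of all genes. The mitosis list was uneven between the treated libraries, at 0.006, -0.404 and -0.088.

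Of 20 p53 targets 19 were higher with a median of 0.66, and 13 had an unadjusted p under 0.05, all higher. Of all 12689 genes tested, 913 were higher with an unadjusted p under 0.05. TP53I3 had 20.7, 26.4 and 23.2 CPM in CTRL and 44.2, 38.3 and 48.5 CPM in ODC, at 0.90 ± 0.14 (edgeR, adjusted p = 0.0655). The p53 targets summed to 1251 to 1535 CPM in CTRL and 1526 to 2541 CPM in ODC, with ODC replicate 2 lowest. No gene of the replication, mitosis or p53 lists passed the adjusted test, as 0.189% of all genes did. At 2 h the medians of the same 3 lists were 0.054, -0.052 and -0.064, with no unadjusted p under 0.05, beside 2.34% of all genes. The part that the share of cycling cells has in the lower levels of the repair genes was not tested.

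**Figure D5:**
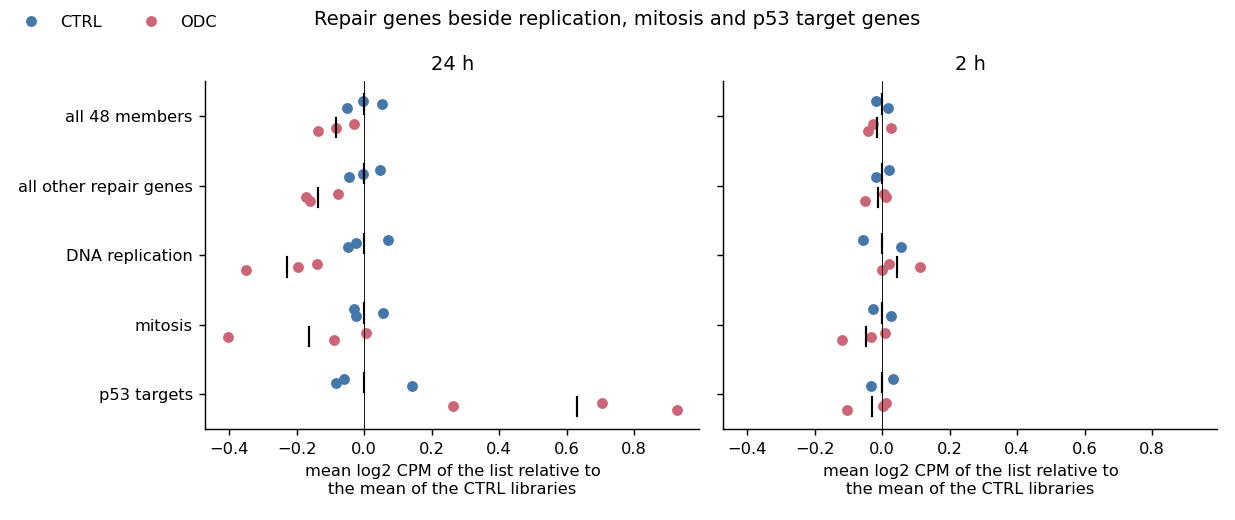
Mean log2 CPM in each library of the 48 repair genes, the other repair genes, replication, mitosis and p53 target genes, relative to the CTRL mean of each time, with CTRL in blue, ODC in red and group means as bars. At 24 h the replication genes lie at -0.139 to -0.350 in ODC and the p53 targets at 0.262 to 0.927, and at 2 h the ODC libraries of each list lie within or close to the CTRL libraries.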

How the data were processed

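The authors deposited raw counts per gene symbol for all 11 samples, in 2 tables of 26485 symbols, 1 for each time point. Reads from a stranded mRNA kit were aligned with STAR to hg38 and counted with HTSeq 0.9.1. The submitters' processing notes give STAR 2.7.0f, whereas the study's methods give an earlier version. The strand setting and annotation release are not given in the sources used here, and 17 of the 48 genes share exonic bases with opposite-strand genes of the tables.

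From these counts, ODC was compared with CTRL in edgeR 4.0.16 (R 4.3.3) by its quasi-likelihood test, two-sided, with TMM scaling and filterByExpr (minimum count 10, minimum total 15), separately at 24 h (12689 genes) and 2 h (13332 genes). The difference of the effects was a contrast over all libraries (13333 genes). Benjamini-Hochberg adjustment covered all genes tested. RPKM used the length of all exons of a gene in GENCODE release 44, over all its transcripts. The repair genes, pathway lists and tests were chosen with earlier results of these data known. Genes named with values in every library were those with an unadjusted p under 0.05 and the smallest p of each pathway. LIG3 was added after its values were seen. Alternatives covered the filter, the scaling, the test (DESeq2 1.42.0 included), a joint fit, each library left out in turn and a block of adjacent library numbers. The deviations of libraries 1 and 2, 3 and 4, and 5 and 6 from their group means correlated at 0.243, 0.611 and 0.474. The labels state no pairs.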

Additional observations from a re-analysis of the deposited data

Results flagged for a closer look

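The effect of ODC differed between 24 h and 2 h by an unadjusted test for 3 of the 48 repair genes, beside 5.93% of all genes tested. This count is close to the background and is not a result about the repair genes as a group. The difference, on the log2 scale, was -0.3445 for CHEK1, -0.3154 for FANCD2 and -0.2871 for FANCG. No difference passed the adjustment over 13333 genes, with adjusted p-values of 0.755 to 0.842. The month in the library names and the time of treatment coincide and cannot be told apart.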

How the results depend on the processing

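Over all results and alternatives, 459 values kept their side of the threshold, stayed within 1.5 times a count or moved a median by less than the spread between replicates, which includes medians near 0 that changed sign. Another 64 no longer reached the threshold or were lower counts, 10 newly reached it or were higher counts, and 17 medians moved by more than that spread. The count of genes with an unadjusted p under 0.05 at 24 h was 4, beside 12.2% of all genes tested. It became 2 by edgeR's likelihood ratio test, beside 12% of all genes, and 7 in the joint fit, beside 15.1%. With the replicate block, a pairing of adjacent library numbers, it was 11, beside 23.6%. With 1 library left out it was 1 to 4, beside 6.98% to 15.6% of all genes. It was lowest without ODC replicate 2 (CHEK1) and at 2 without CTRL replicate 2 or without ODC replicate 3. With both controls kept, the count at 2 h was 0 in every alternative, beside 1.33% to 3.22% of all genes tested. The difference between the times gave 3 genes, beside 5.93% of all genes. It gave 1 with every counted gene tested, with at least 10 counts in every library, with upper quartile scaling or by the likelihood ratio test. In these fits 4.87% to 5.86% of all genes reached it. With an ODC or a 24 h library left out it gave 0 to 4, beside 4.07% to 7.86% of all genes. The median of end joining at 24 h became -0.0399 with library size only.

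With a library left out, the medians at 24 h ranged from -0.2098 to -0.1017 for homologous recombination, -0.2775 to -0.1337 for Fanconi anaemia, -0.2325 to -0.1074 for both together, -0.0246 to 0.0260 for end joining, -0.0898 to 0.0004 for sensing and checkpoint, -0.1221 to 0.0174 for base excision, -0.0831 to 0.1129 for mismatch repair and -0.0844 to 0.0278 for nucleotide excision repair. At 2 h they ranged from -0.0858 to 0.0589 for homologous recombination, -0.0829 to 0.0585 with Fanconi anaemia, -0.0788 to 0.0390 for end joining, -0.0571 to 0.0152 for sensing and checkpoint, -0.1028 to 0.0887 for mismatch repair and -0.0749 to 0.0655 for nucleotide excision repair. The causes were not tested. CHEK1 kept an unadjusted p under 0.05 at 24 h in 18 of 18 alternatives, XRCC4 in 16, FANCD2 in 13 and FANCG in 9. Where 1 control was left at 2 h, it was assumed to vary like the treated libraries.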
